A study of Mus musculus with 9 samples.

Results

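The wild-type mouse ovary was described from 3 of the 9 samples of the series, those whose disease state reads "WT mice" and whose genotype is FOXL2 WT/WT. The other 6 samples were hyperplasias and tumours of the genotype FOXL2 WT/C134W and were not analysed here. RNA from dissected whole ovaries was extracted with Trizol and sequenced as stranded TruSeq mRNA libraries, which enrich polyadenylated RNA. The labels give no strain, age or cycle stage, and nothing says that the 3 samples came from separate animals, so a spread between them may be technical. Levels are given in TPM (transcript abundance from counts scaled for transcript length and library total) in libraries 1, 2 and 3, with mean ± SD and n = 3. With 1 group and no contrast there was no test, and a difference between libraries is a description of these libraries. In a whole tissue, fewer cells of a type and less RNA per cell cannot be told apart.

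The ovary makes oocytes and steroid hormones in the same structures. Each oocyte is enclosed in a follicle by granulosa cells, and theca cells around the follicle supply androgen that granulosa cells turn into estradiol. After ovulation the follicle becomes a corpus luteum, which makes progesterone until it regresses. Levels of follicular and luteal transcripts therefore depend on the stage of the estrous cycle.

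Libraries 1, 2 and 3 held 20890536, 15778631 and 16342143 expected counts on genes, and library 1 stood apart from the other two. Over the 9565 genes with a mean of at least 10 TPM, Pearson's r of log2(TPM + 1) across genes, which are not independent replicates, was 0.827 between libraries 1 and 2, 0.839 between libraries 1 and 3 and 0.926 between libraries 2 and 3. The difference followed transcript length. In the shortest of 5 equal bins of genes, library 1 lay at a median of 0.36 (log2) above each gene's mean over the other libraries. In the longest bin it lay at -1.29. The TPM-weighted mean transcript length was 1360 bases in library 1, 1802 in library 2 and 1773 in library 3. The median gene therefore deviated from its mean over the other libraries by -0.49, 0.27 and 0.21 (log2) in the 3 libraries on the TPM scale. After TMM scaling of the libraries these deviations were 0.12, -0.05 and -0.07. For these reasons counts of varying genes are given for all libraries in TPM, for most lists also after TMM scaling, with the length trend removed, and for libraries 2 and 3 alone. The part of RNA quality in the length trend was not tested.

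**Figure D1:**
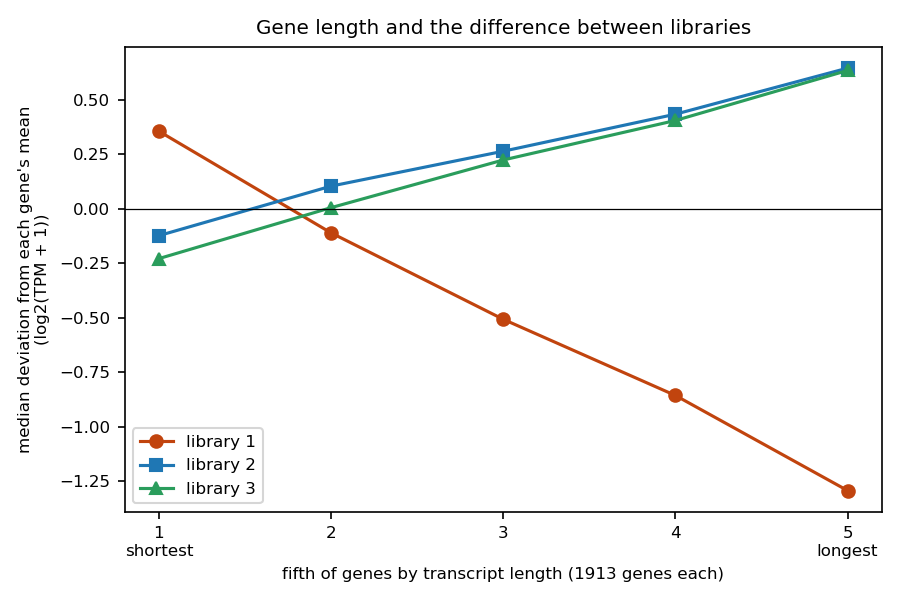
Median deviation of each library from the gene's mean over the other libraries, in log2(TPM + 1), for 5 bins of 1913 genes ordered by transcript length. Library 1 runs from 0.36 in the shortest bin down to -1.29 in the longest, and libraries 2 and 3 run the other way and close to each other.

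A mean of at least 1 TPM was reached by 15431 genes, of which 13508 were protein-coding, 61.3% of the protein-coding genes in the tables. Of all genes, 9565 reached 10 TPM, 1490 reached 100 TPM and 148 reached 1000 TPM. Expression was concentrated in few genes. The 10 most abundant held 9.37% ± 0.87 of TPM (SD, n = 3), the top 100 held 32.1% ± 3.85 and the top 1000 held 64.3% ± 5.12. Among the top 100 were 61 cytosolic ribosomal protein genes and 11 genes of the mitochondrial chromosome. Protein-coding genes held 92.3% of TPM.

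Grouped by function, the machinery of protein synthesis and respiration took the largest shares among the 34 lists, and steroid synthesis was the largest of the functions that define the ovary's endocrine cells. Cytosolic ribosomal proteins held 17.4% ± 3.45 of TPM and mitochondrially encoded proteins 7.65% ± 0.67. Nuclear genes of the respiratory chain held 2.93% ± 0.81 and translation factors 2.698% ± 0.164. The redox and metal-binding list held 1.77% ± 0.39, and the steroid synthesis list 1.57% ± 0.14 with 15 genes. Cell-type lists were smaller, because they hold only markers and not all RNA of a cell. Stromal markers held 0.436% ± 0.147, granulosa markers 0.415% ± 0.114 and luteal markers 0.354% ± 0.285. Oocyte markers held 0.0395% ± 0.0048. Some genes stand in more than 1 list, so the shares do not add up.

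**Figure D2:**
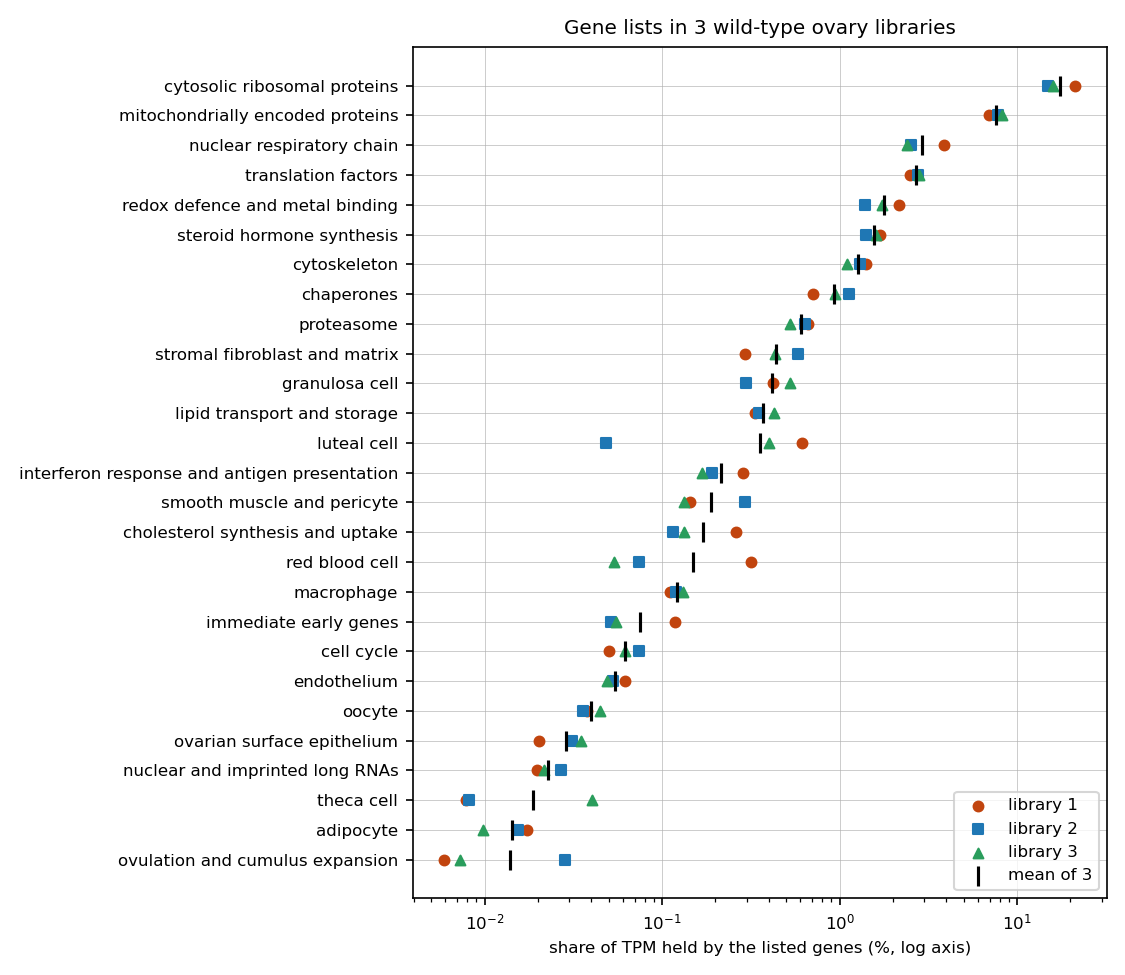
Share of TPM (percent, log axis) held by each gene list with a mean of at least 0.01%, by library, with the mean as a black bar. Ribosomal proteins lead with 17.4%, and the luteal list shows the widest gap, from 0.0481% in library 2 to 0.612% in library 1.

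The most abundant nuclear protein-coding transcript was Eef1a1, which delivers aminoacyl-tRNA to the ribosome, at 6608, 8977 and 8569 TPM. Tpt1, the translationally controlled tumour protein, followed at 7225, 5787 and 6600 TPM. Of the 25 highest nuclear protein-coding genes, 18 were cytosolic ribosomal proteins. Rps27, a protein of the small ribosomal subunit, led them at 7665, 4352 and 5555 TPM, highest in library 1. Rplp1 of the large subunit's stalk had 6473, 4795 and 4194 TPM. Rpl13a, also of the large subunit, had 4899, 3612 and 3766 TPM. Rps21 of the small subunit had 5384, 2448 and 2693 TPM, 1 of the few with a range beyond 2-fold. Ribosomal protein genes have many processed pseudogenes, so the split of reads between them is uncertain.

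How many ribosomal proteins passed a 2-fold range depended on the scale. Of the 82 members at or above 10 TPM, 5 had their highest and lowest library at least 2-fold apart on log2(TPM + 1), against 37.5% of all 9565 genes. After TMM scaling it was 57 members, against 31.0% of all genes, and with the length trend removed it was 1, against 14.2%. Between libraries 2 and 3 alone it was 1 member, against 3.81% of all genes. The highest value was in library 1 for 73 of the 82, against 23.2% of all genes, and for 80 after TMM scaling, against 50.1%. With the length trend removed it was in library 1 for 28, against 40.5%. Their short transcripts and the length trend of library 1 moved together.

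Transcripts of the translation machinery are known for a pyrimidine tract at their 5′ end, through which their translation is controlled. Windows around the RefSeq start (GRCm38.p6, 10 bases before to 20 after) are shown for some abundant members that have such a tract. Most of the ribosomal protein genes matched had none at a listed start, as counted below. Capitals mark a run that starts with C within 2 bases of the start and goes on with at least 5 pyrimidines.
Eef1a1: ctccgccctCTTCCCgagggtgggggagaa
Rps27: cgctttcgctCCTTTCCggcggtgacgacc
Rpl13a: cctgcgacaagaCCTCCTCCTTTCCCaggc
Rps21: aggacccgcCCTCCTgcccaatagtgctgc
Rps24: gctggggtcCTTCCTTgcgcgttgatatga
They lie at chr9:78481705-78481734, chr3:90213629-90213658, chr7:45128726-45128755 (these 3 on the minus strand), chr2:180257369-180257398 and chr14:24490668-24490697 (both on the plus strand). Such a tract was found at a listed start of 21 of 64 ribosomal protein genes matched in the table (32.8%). It was found for 6 of 48 translation factors (12.5%), 8 of 67 nuclear respiratory genes (11.9%), 0 of 10 steroid synthesis genes and 1820 of 27025 genes in all (6.73%). The definition of the tract was chosen after the data were seen, and a match of letters is a description only.

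Mitochondrially encoded proteins were the next largest group, and 3 of them had the 3 highest mean TPM of all genes. TPM is per length, so a high value of a short gene rests on fewer reads. mt-Co2, a subunit of cytochrome c oxidase, had 20305, 12982 and 13258 TPM. mt-Atp8, a subunit of ATP synthase, had 8011, 17887 and 19811 TPM, and library 1 lay below the other two. mt-Co1, the catalytic subunit of cytochrome c oxidase, had 7620, 12132 and 14116 TPM. The other 10 ranged in mean from 1394 TPM (mt-Nd3) to 6065 TPM (mt-Cytb). Of the 13, 5 had a range beyond 2-fold and 6 did after TMM scaling, against 37.5% and 31.0% of all genes. Between libraries 2 and 3 it was 0, against 3.81%.

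Reads of these genes could not be placed fully. Unprocessed pseudogenes on chromosome 1, between 24612407 and 24616197 (GRCm38, minus strand), share 97.2% to 100% of their 31-base words with mitochondrial genes, and 6 of them held 3.44%, 2.63% and 3.28% of TPM. Gm10925, a copy of the mt-Atp6 and mt-Atp8 region, had 8976, 9853 and 11591 TPM, more than any nuclear protein-coding gene in its mean. Gm29216, a copy of part of mt-Co1, had 11626, 104 and 1425 TPM, and Gm28661, a copy of mt-Co2, had 0, 6.55 and 2072 TPM. Reads of such copies cannot be told apart where these words are shared. Counted together, mitochondrial proteins and these pseudogenes held 10.3%, 10.4% and 11.5% of TPM (10.8% ± 0.63).

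Nuclear-encoded subunits of the respiratory chain were led by Atp5b, the catalytic subunit of ATP synthase, at 1547, 1492 and 1172 TPM. Atp5g3, a subunit of its membrane ring, had 1612, 839 and 1273 TPM. Cox4i1 of cytochrome c oxidase had 1461, 878 and 927 TPM. Of the 81 members at or above 10 TPM, 70 were highest in library 1, against 23.2% of all genes, and 80 were after TMM scaling, against 50.1%. A range beyond 2-fold was found for 17 in TPM (37.5% of all genes), for 66 after TMM scaling (31.0%) and for 3 with the length trend removed (14.2%). Between libraries 2 and 3 the number was 0, against 3.81% of all genes.

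Steroid synthesis was led by enzymes of the first steps to progesterone, whose TPM values lay close together in the 3 libraries, while several enzymes of the later steps differed more between them. Hsd3b1, which makes progesterone from pregnenolone, had 6340, 5945 and 5731 TPM (6006 ± 309, SD, n = 3) and was the third nuclear protein-coding gene by rank. Cyp11a1, the side-chain cleavage enzyme that makes pregnenolone from cholesterol, had 5438, 4970 and 4571 TPM (4993 ± 434). In TPM both kept their 3 values within 1.2-fold of each other, but this depended on the scale. After TMM scaling the range of Hsd3b1 was 0.77 (log2) and that of Cyp11a1 0.88, and with the length trend removed they were 0.34 and 0.64. Fdx1, the ferredoxin that passes electrons to Cyp11a1, had 2089, 1203 and 1484 TPM, and Fdxr, its reductase, had 415, 435 and 255 TPM. Star, which moves cholesterol into the mitochondrion, had 367, 783 and 486 TPM and was highest in library 2. Scarb1, the receptor that takes up cholesterol from high-density lipoprotein, had 1012, 301 and 430 TPM and was highest in library 1.

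Akr1c18, which breaks progesterone down, had 186, 31.4 and 2113 TPM, and library 3 lay far above the other two. Cyp17a1, the enzyme of androgen synthesis in theca cells, had 33.6, 1.52 and 280 TPM, with the same order of libraries. Cyp19a1, the aromatase that makes estradiol in granulosa cells, had 14.3, 6.67 and 43.0 TPM, again in that order. Hsd17b1, which turns estrone into estradiol, had 241, 98.3 and 203 TPM. Hsd17b7, an enzyme of estradiol and cholesterol synthesis that is abundant in corpora lutea, had 560, 9.46 and 24.1 TPM and was high in library 1 alone. Nr5a1, the transcription factor steroidogenic factor 1, had 105, 123 and 247 TPM. Hsd3b6, a close relative of Hsd3b1, had 0.71, 1.38 and 1.08 TPM, and reads shared between them are uncertain.

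Of the 14 steroid synthesis genes at or above 10 TPM, 10 had a range beyond 2-fold in TPM and 10 after TMM scaling (37.5% and 31.0% of all genes), 8 with the length trend removed (14.2%) and 5 between libraries 2 and 3 (3.81%). All 5 were higher in library 3, a direction in which 1.83% of all genes differed 2-fold. They were Akr1c18, Cyp17a1, Cyp19a1, Hsd17b7 and Hsd17b1. The list as a whole held 1.69%, 1.41% and 1.60% of TPM, and Hsd3b1 and Cyp11a1 made up most of it.

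**Figure D3:**
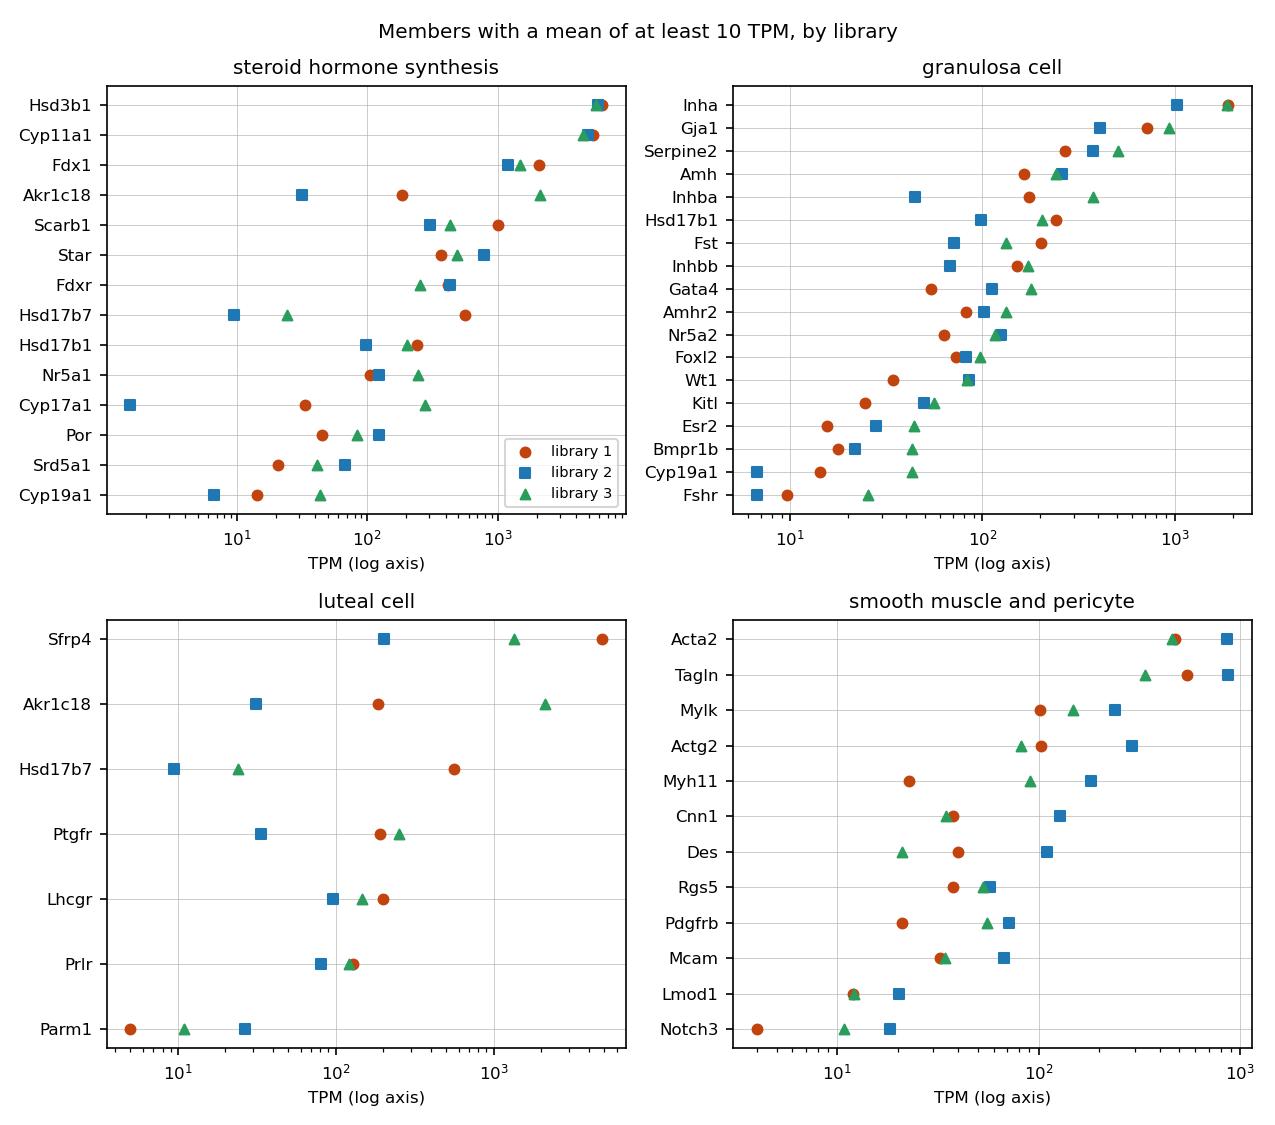
TPM (log axis) of each member with a mean of at least 10 TPM in 4 lists, with 1 symbol per library. The TPM values of Hsd3b1 and Cyp11a1 overlap in the 3 libraries, Cyp17a1 spans 1.52 to 280 TPM, and all 12 smooth muscle and pericyte genes are highest in library 2.

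Upstream sequences are shown for Hsd3b1, whose TPM values were close, and for the 2 matched steroid synthesis genes in which TATAA was found. The last 60 bases before a RefSeq start (GRCm38.p6) are given, with capitals for TATAA, the letters of a TATA box, searched on the gene's strand 40 to 16 bases before the start.
Hsd3b1: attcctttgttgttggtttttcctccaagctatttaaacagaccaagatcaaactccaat
Akr1c18: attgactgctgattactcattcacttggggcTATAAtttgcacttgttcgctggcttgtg
Cyp19a1: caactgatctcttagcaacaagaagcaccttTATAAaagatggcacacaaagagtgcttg
They lie at chr3:98859795-98859854, chr13:4150647-4150706 and chr9:54228915-54228974, all on the minus strand, and the last is 1 of 3 listed starts of Cyp19a1. TATAA was found at this place before 3.52% of 32851 promoters and for 2 of the 10 steroid synthesis genes with an entry, the pair shown. Hsd17b7, Por and Srd5a1, whose ranges in TPM were also beyond 2-fold, had none. Only these exact letters were searched, and a link of TATAA with the range was not tested. Within 250 bases before the start, AAGGTCA, the half-site of steroidogenic factor 1, occurred on either strand in 4.72% of promoters. GTAAACA, a forkhead motif, occurred in 3.65%. Neither occurred in the 13 promoters of the 10 matched genes, which says only that these letters are not in these windows. No entry was matched for Star, Scarb1, Nr5a1, Cyp17a1 or Hsd17b1.

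Besides ribosomal proteins and steroid enzymes, the most abundant transcripts came from iron storage, lipid transport, the cytoskeleton and the granulosa and luteal cells. The ferritin chains Ftl1 and Fth1, which store iron, had 3565, 3180 and 3861 TPM and 3921, 2669 and 3139 TPM. Ppia, a protein-folding isomerase, had 3607, 2938 and 2771 TPM. Apoe, an apolipoprotein of cholesterol transport, had 2368, 2300 and 2876 TPM. Its highest library was 3 on the TPM scale and 1 after TMM scaling. Akr1cl, an aldo-keto reductase, had 2879, 1280 and 3104 TPM, lowest in library 2. Aldh1a1, which makes retinoic acid, had 1067, 812 and 2961 TPM and was highest in library 3. Gpx3, a secreted glutathione peroxidase, had 3457, 764 and 1433 TPM and was highest in library 1. Sod1, the cytosolic superoxide dismutase, had 1793, 845 and 1019 TPM. The metallothionein Mt1 had 788, 795 and 1178 TPM.

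Of 20 redox genes, 9 had a range beyond 2-fold in TPM (37.5% of all genes), 14 after TMM scaling (31.0%) and 10 with the length trend removed (14.2%). Between libraries 2 and 3, 3 members passed (3.81% of all genes), and all 3 were higher in library 3. The glutathione transferases Gstm1 and Gstm2 belong to them, with 633, 476 and 1206 TPM and 434, 353 and 840 TPM, but they are close copies whose reads may be shared. Among cytoskeletal genes, Myl6, a myosin light chain, had 2974, 1903 and 1422 TPM. Actb had 1623, 1733 and 1559 TPM, with its highest library moving from 2 to 1 after TMM scaling. Chaperones were led by Hspa8 at 919, 1926 and 1767 TPM and by Hsp90ab1 at 1070, 1901 and 1527 TPM. Of 37 proteasome genes 1 had a range beyond 2-fold in TPM (37.5% of all genes). After TMM scaling 12 did, which is near the 31.0% of all genes.

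**Figure D4:**
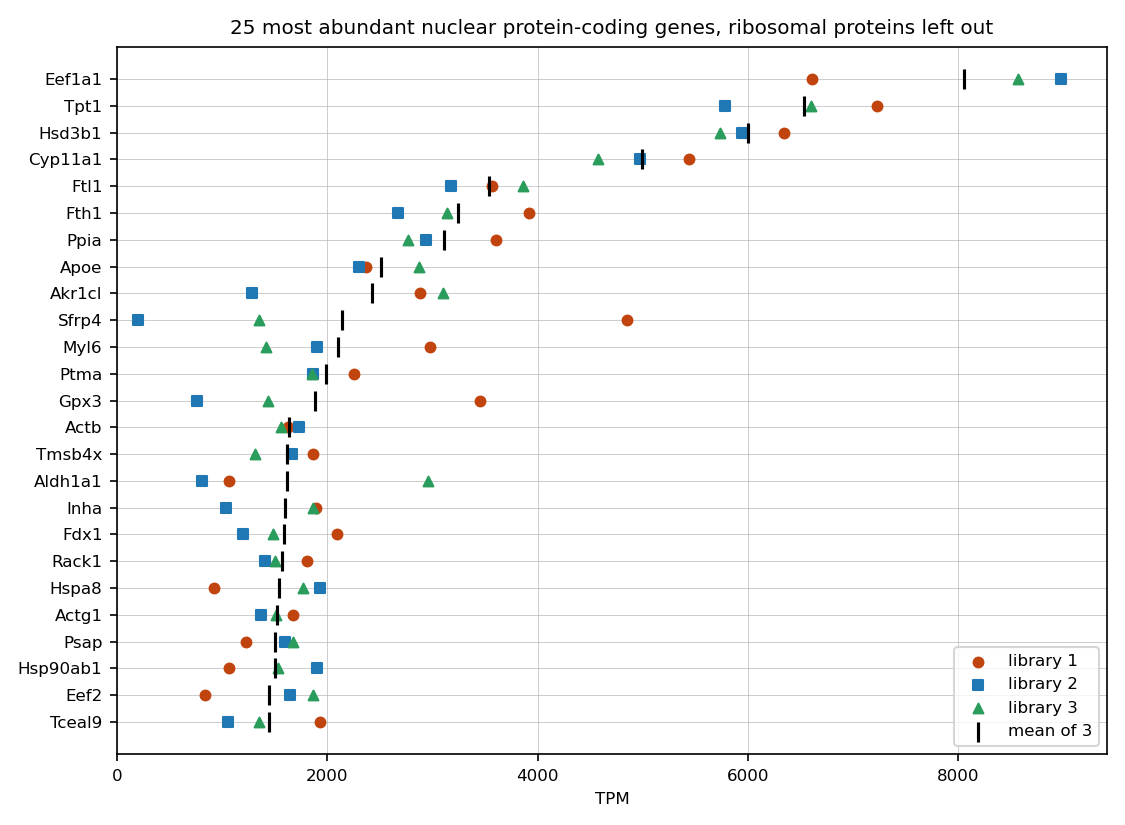
TPM in each library of the 25 nuclear protein-coding genes of highest mean that are not ribosomal proteins, with the mean as a black bar. The TPM values of Hsd3b1 and Cyp11a1 lie close to 6006 and 4993 TPM, and Sfrp4 spreads from 202 to 4855 TPM.

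All 18 granulosa markers were detected, with a median of 110 TPM. Inha, the inhibin alpha subunit, was the most abundant at 1898, 1034 and 1862 TPM. Inhba and Inhbb, the beta subunits shared by inhibin and activin, had 174, 44.5 and 375 TPM and 151, 68.0 and 172 TPM. Fst, follistatin, which binds activin, had 201, 71.0 and 132 TPM. These 4 genes were lowest in library 2. Amh, the anti-Mullerian hormone of growing follicles, went the other way with 165, 261 and 240 TPM. Its receptor Amhr2 had 82.2, 102.06 and 132 TPM. Fshr, the receptor of follicle-stimulating hormone, was the lowest of the list at 9.57, 6.67 and 25.3 TPM. Gja1, the gap junction protein connexin 43, had 721, 409 and 940 TPM, highest in library 3 and in library 1 after TMM scaling. Serpine2, a protease inhibitor, had 269.45, 376 and 507 TPM.

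Foxl2, the forkhead factor that keeps granulosa cell identity, had 72.5, 82.0 and 97.3 TPM (83.9 ± 12.5, SD, n = 3), its 3 TPM values within 1.34-fold. Its highest library was 3 on the TPM scale and 1 after TMM scaling. The receptor Nr5a2, a relative of Nr5a1, had 62.9, 124 and 116 TPM. Gata4 had 54.1, 112 and 178 TPM and its relative Gata6 had 30.9, 36.6 and 45.1 TPM. Wt1, the Wilms tumour factor of gonadal somatic cells, had 34.3, 85.1 and 83.1 TPM. Of the steroid receptors, Esr2, the estrogen receptor of granulosa cells, had 15.4, 27.9 and 44.1 TPM. Esr1 had 8.69, 36.5 and 26.2 TPM. Pgr, the progesterone receptor, was near the limit at 0.32, 0.85 and 1.19 TPM.

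Of the 18 granulosa markers 12 had a range beyond 2-fold in TPM and 9 after TMM scaling (37.5% and 31.0% of all genes), 7 with the length trend removed (14.2%) and 6 between libraries 2 and 3 (3.81%). All 6 were higher in library 3 (1.83% of all genes), and the median difference of library 3 from library 2 over the list was 0.76 (log2). On the TPM scale 12 were highest in library 3 (33.4% of all genes) and on the TMM scale 9 were (23.3%). With the length trend removed 8 were highest in library 3 (27.8% of all genes) and 9 in library 1 (40.5%). The smooth muscle list, described below, differed between these libraries in the other direction, and its part in the difference was not tested.

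Luteal markers were uneven, and library 2 held least of them. Their share of TPM was 0.612%, 0.0481% and 0.402%. Sfrp4, a secreted Wnt antagonist of corpora lutea, had 4855, 202 and 1351 TPM. Ptgfr, the prostaglandin receptor through which corpora lutea regress, had 190, 33.9 and 251 TPM, highest in library 3 and in library 1 after TMM scaling. Lhcgr, the receptor of luteinizing hormone, had 200, 96.7 and 146 TPM. Prlr, the prolactin receptor that maintains corpora lutea, had 128, 81.3 and 121 TPM. Of these 7 genes, 6 including Akr1c18 and Hsd17b7 were lowest in library 2. Parm1 had 5.01, 26.7 and 11.0 TPM and was highest there. Of the 7, 6 had a range beyond 2-fold in TPM and all 7 after TMM scaling, against 37.5% and 31.0% of all genes. With the length trend removed it was 7, against 14.2%, and between libraries 2 and 3 it was 5, against 3.81%, of which 4 were higher in library 3.

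The luteal libraries did not share 1 profile. Library 1 had the highest Hsd17b7 and Sfrp4 with 186 TPM of Akr1c18, whereas library 3 had 2113 TPM of Akr1c18 with 24.1 TPM of Hsd17b7. The ratio of these genes thus differed between libraries that both held more luteal transcripts than library 2.

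Theca markers were scarce in libraries 1 and 2. Beside Cyp17a1, the peptide hormone Insl3 had 13.0, 5.44 and 49.1 TPM. The hedgehog receptor Ptch1, which marks the theca's response to signals of granulosa cells, had 13.7, 36.9 and 34.5 TPM. Enpep, an aminopeptidase, had 10.4, 24.4 and 23.1 TPM. All 4 members at or above 10 TPM had a range beyond 2-fold in TPM, against 37.5% of all genes. Only Cyp17a1 and Insl3 of the 4 kept it with the length trend removed (14.2% of all genes) and between libraries 2 and 3 (3.81%). Both were higher in library 3, a direction in which 1.83% of all genes differed 2-fold. After TMM scaling 2 of the 4 kept it (31.0% of all genes).

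Oocyte transcripts were few in the whole ovary. Of 22 genes 21 reached 1 TPM and 14 reached 10 TPM. The share of TPM was 0.0379%, 0.0358% and 0.0449%. Tle6 of the maternal complex needed for early cleavage had 62.6, 51.8 and 52.9 TPM. Gdf9, a growth factor through which the oocyte acts on granulosa cells, had 31.7, 34.6 and 48.6 TPM, highest in library 3 and in library 1 after TMM scaling. Padi6 of the oocyte's lattices had 24.1, 43.3 and 46.1 TPM. Zp3 and Zp2, proteins of the zona pellucida, had 24.02, 25.9 and 30.96 TPM and 17.8, 24.99 and 29.7 TPM. Bmp15, partner of Gdf9, had 5.82, 10.2 and 12.4 TPM. Genes of the smallest follicles were lower, with Nobox at 3.81, 3.59 and 5.74 TPM, Figla at 1.27, 2.33 and 2.27 TPM and Sohlh1 at 0.45, 0.66 and 0.62 TPM. Of the 14 members, 1 (Nlrp5) had a range beyond 2-fold in TPM, against 37.5% of all genes. After TMM scaling 4 others did (Oosp1, Dppa3, Bcl2l10 and Zar1), against 31.0%, and Nlrp5 did not. With the length trend removed and between libraries 2 and 3 it was 0, against 14.2% and 3.81%.

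Most stromal markers were highest in library 2. Mgp, the matrix Gla protein, had 1246, 1151 and 877 TPM and was not. Sparc, a matrix protein, had 665, 1577 and 952 TPM. The fibrillar collagens Col3a1, Col1a2 and Col1a1 had 159, 973 and 627 TPM, then 124, 529 and 491.02 TPM, then 56.4, 391 and 267 TPM. Collagen messages are long, and library 1 was low for all 3. With the length trend removed their ranges were 1.49, 0.80 and 1.37 (log2), and library 2 was still highest. Dcn, decorin, had 282, 471 and 380 TPM. Of 13 stromal genes 9 were highest in library 2 (43.4% of all genes), 9 after TMM scaling (26.6%) and 10 with the length trend removed (31.6%). A range beyond 2-fold was found for 8 in TPM and 7 after TMM scaling (37.5% and 31.0% of all genes), and for 5 with the length trend removed (14.2%). Between libraries 2 and 3 (3.81%) it was found for 1, Dpt, a dermal matrix protein, with 11.2, 46.6 and 8.28 TPM.

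All 12 smooth muscle and pericyte genes were highest in library 2 in TPM (43.4% of all genes), 11 after TMM scaling (26.6%) and 10 with the length trend removed (31.6%). Acta2, smooth muscle actin, had 478, 859 and 457 TPM. Tagln, transgelin, had 543, 872 and 336 TPM. Actg2, an actin of visceral smooth muscle, had 103, 292 and 81.9 TPM. Des, the intermediate filament desmin, had 39.9, 111 and 20.89 TPM. Libraries 1 and 3 were close for Acta2, Actg2 and Cnn1, and library 2 lay above both. A range beyond 2-fold was found for 9 of 12 in TPM and 7 after TMM scaling (37.5% and 31.0% of all genes), and for 6 with the length trend removed (14.2%). Between libraries 2 and 3 it was found for 5, all higher in library 2, a direction in which 1.98% of all genes differed 2-fold.

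Endothelial markers were present at 10.4 to 133 TPM. Cldn5, a tight junction protein, had 195, 93.1 and 112 TPM. Pecam1 had 34.5, 47.4 and 32.5 TPM, and Emcn, endomucin, had 35.9, 33.1 and 33.2 TPM. Of 12 genes 4 had a range beyond 2-fold (37.5% of all genes), 4 did with the length trend removed (14.2%) and 0 did between libraries 2 and 3 (3.81%). Macrophage markers had 4 of 9 beyond 2-fold in TPM, 1 after TMM scaling (31.0% of all genes) and 0 between libraries 2 and 3. Lyz2, lysozyme, had 648, 618 and 753 TPM, highest in library 3 and in library 1 after TMM scaling. The complement chains C1qa, C1qb and C1qc had means of 129, 145 and 99.7 TPM with SDs of 13.1, 7.998 and 10.002 TPM. The receptor Csf1r had 10.3, 29.5 and 33.8 TPM. Lymphocyte markers were near the limit, with 0 of 11 at 10 TPM and Cd3g of T cells highest at 5.27, 4.12 and 3.30 TPM. Of mast cell genes, Cma1, a chymase, had 18.7, 18.5 and 3.43 TPM. The neutrophil genes Ly6g and Elane were at 0 counts in the 3 libraries, which allows up to 0.73 and 0.399 TPM at 3 counts.

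Red blood cell transcripts were highest in library 1. Hbb-bs, a beta globin, had 1407, 285 and 237 TPM, and Hba-a2, an alpha globin, had 1146, 312 and 111 TPM. Alas2, which starts heme synthesis in red cells, had 7.89, 2.16 and 2.07 TPM. All 4 globins at or above 10 TPM were highest in library 1 in TPM (23.2% of all genes). They were so too after TMM scaling (50.1%) and with the length trend removed (40.5%). All 4 were beyond 2-fold on these 3 scales, against 37.5%, 31.0% and 14.2% of all genes. Globin pairs are near copies, so the split between Hba-a1 and Hba-a2 and between Hbb-bs and Hbb-bt is uncertain.

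Markers of the ovarian surface epithelium held a mean of 0.0287% of TPM, and those of oviduct, adipocytes, adrenal cortex and skeletal muscle held less. The surface epithelium genes Krt19 and Upk1b had 70.9, 69.3 and 46.3 TPM and 22.95, 47.3 and 50.5 TPM, and Krt7 had 7.57, 18.3 and 43.1 TPM. Ovgp1, the oviduct glycoprotein, had 3.27, 58.95 and 0.91 TPM, and Foxj1 of ciliated cells had 0.96, 3.64 and 0.32 TPM, both highest in library 2. Tppp3, another gene of the list, had 18.8, 18.4 and 26.5 TPM and did not follow them. The adrenal enzyme Cyp11b1 had 0.04, 18.7 and 0.06 TPM, while Cyp11b2 and Cyp21a1 of the same list were at 0. Fabp4 of adipocytes and endothelium had 98.4, 48.7 and 35.3 TPM and Adipoq, adiponectin, had 9.66, 7.26 and 5.04 TPM. Other adipocyte genes had another order, with Plin1 at 8.33, 39.4 and 36.4 TPM and Cfd at 39.2, 45.5 and 14.3 TPM. No skeletal muscle gene of 6 reached a mean of 1 TPM, and Tnnt3, a troponin, had 0.13, 1.62 and 0.37 TPM. The testis genes Dmrt1 and Sry were at 0, which allows up to 0.218 and 0.314 TPM, and Sox9 had 1.29, 3.30 and 3.15 TPM. Ptgds, prostaglandin D synthase, had 120, 6.46 and 23.4 TPM and was alone of that list above 10 TPM.

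Across all 9565 genes, 3590 had a range beyond 2-fold, 1362 with the length trend removed and 364 between libraries 2 and 3. The median coefficient of variation was 29.0%, against 3.34% from counting alone, so counting error was a small part of the spread at this depth. Lists differed in what remained without library 1. Luteal, smooth muscle, steroid and granulosa genes kept 5 of 7, 5 of 12, 5 of 14 and 6 of 18 members beyond 2-fold. The steroid members among them add no gene, since Akr1c18 and Hsd17b7 also stand in the luteal list, Cyp19a1 and Hsd17b1 in the granulosa list and Cyp17a1 in the theca list. Cholesterol synthesis, nuclear respiratory chain, cell cycle, endothelium, macrophage, oocyte, proteasome and translation factor genes kept 0, where 3.81% of all genes passed. Cytoskeleton, mitochondrially encoded, and interferon and antigen presentation genes also kept 0, as did the nuclear and imprinted long RNAs. In a short list a count of 0 is near the share of all genes and does not set the list apart.

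**Figure D5:**
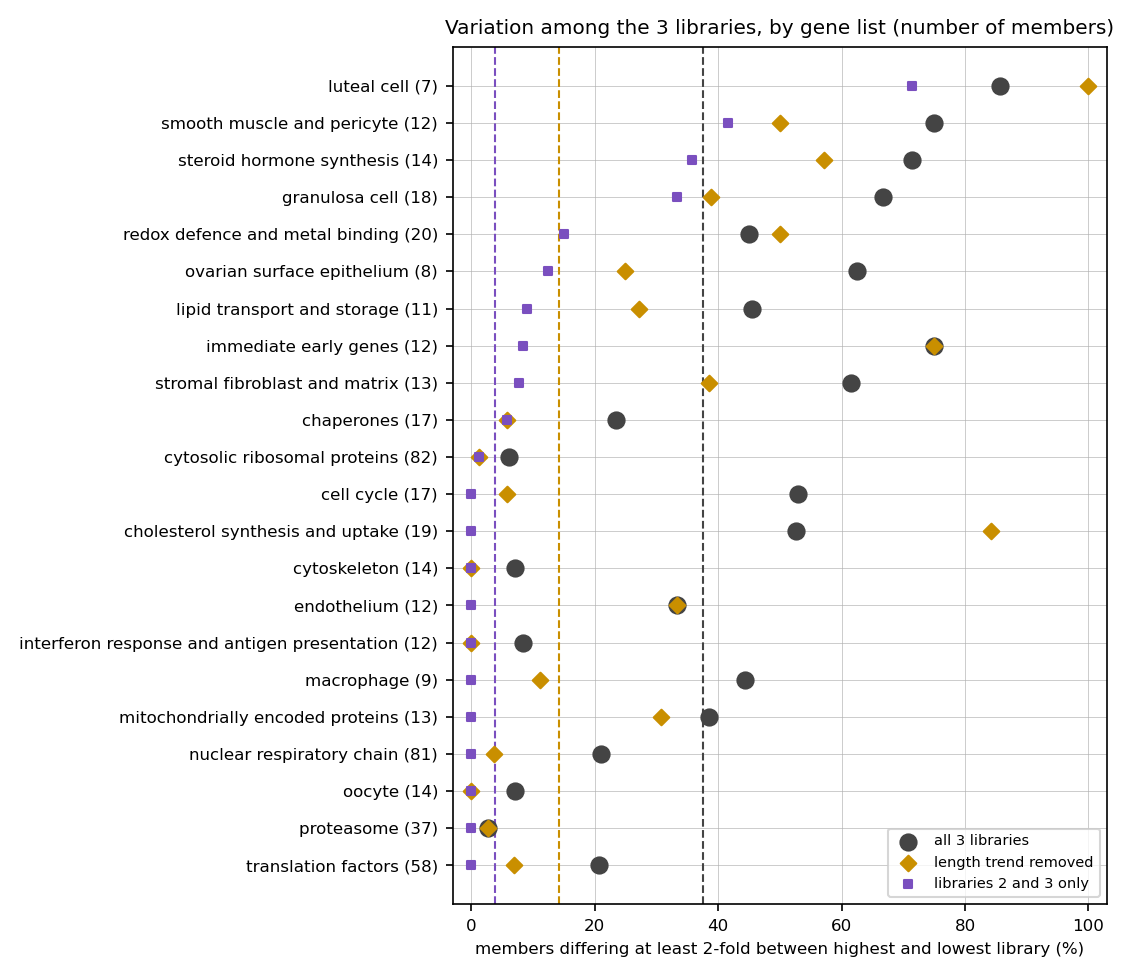
Percent of members with a range of at least 2-fold, for lists with at least 7 members at 10 TPM (number in parentheses), with all libraries, with the length trend removed, and for libraries 2 and 3 alone. Dashed lines give the same over all 9565 genes (37.5%, 14.2% and 3.81%), and the points of libraries 2 and 3 alone lie farthest right for the luteal, smooth muscle, steroid and granulosa lists.

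Cholesterol synthesis set library 1 apart. Fdps, which makes farnesyl diphosphate, had 863, 189 and 311 TPM. Msmo1, a methylsterol oxidase, had 457, 89.4 and 137 TPM. Sqle, squalene epoxidase, had 86.8, 29.4 and 37.2 TPM, and Cyp51, a sterol demethylase, had 89.9, 35.5 and 38.5 TPM. Library 1 was highest for 14 of 19 genes on the TPM scale (23.2% of all genes), and for 18 both after TMM scaling (50.1%) and with the length trend removed (40.5%). A range beyond 2-fold was found for 10 in TPM (37.5% of all genes), and for 16 both after TMM scaling (31.0%) and with the length trend removed (14.2%). Between libraries 2 and 3 it was found for 0, against 3.81% of all genes. Scarb1 and Hsd17b7, which handle cholesterol or sterols, were also highest in library 1, whereas Star was lowest there.

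Immediate early genes, which respond within minutes to stimulation or handling of tissue, were also highest in library 1. Ier2 had 212, 39.5 and 35.7 TPM. Dusp1, a phosphatase of MAP kinases, had 127, 13.5 and 19.8 TPM, and the transcription factor Egr1 had 134, 41.6 and 47.1 TPM. Library 1 was highest for 10 of 12 genes in TPM (23.2% of all genes), for 12 after TMM scaling (50.1%) and for 11 with the length trend removed (40.5%). A range beyond 2-fold was found for 9 both in TPM (37.5% of all genes) and with the length trend removed (14.2%), and for 10 after TMM scaling (31.0%). Between libraries 2 and 3 it was found for 1, Fos (3.81%). Jun had 53.4, 56.6 and 73.8 TPM, with its highest library moving from 3 to 1 after TMM scaling. The part of dissection or time to extraction was not tested.

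Most ovulation genes were low, and 3 of 11 reached 10 TPM. Ptgs2, the prostaglandin synthase induced by the gonadotropin surge, had 0.08, 0.78 and 0.45 TPM, and Has2, which makes the cumulus matrix, had 0.07, 0.07 and 0.10 TPM. Adamts1, a protease of the ovulating follicle, had 9.0, 167 and 18.9 TPM, and Runx1 had 3.96, 65.0 and 21.5 TPM, both highest in library 2. Runx2 had 39.5, 42.0 and 22.4 TPM, with its highest library moving from 2 to 1 after TMM scaling. Among cell cycle genes, Pcna of the replication fork had 152, 133 and 114 TPM and the proliferation marker Mki67 had 5.93, 23.6 and 20.3 TPM. Of 17 such genes 9 had a range beyond 2-fold in TPM (37.5% of all genes) and 4 after TMM scaling (31.0%). With the length trend removed it was 1 (14.2%), and between libraries 2 and 3 it was 0 (3.81%).

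The protein-coding genes that set 1 library apart most were chosen by their range, so their values are given as a description. High in library 1 were Cst8, a cystatin, at 622, 9.93 and 80.7 TPM, Saa2, a serum amyloid, at 186, 13.4 and 3.23 TPM, and Ces2a, a carboxylesterase, at 87.2, 1.53 and 0.47 TPM. Rln1, relaxin, had 42.4, 0.39 and 0 TPM. Ssu2 had 118, 5.33 and 0.96 TPM, Cldn18, a claudin, had 42.1, 2.36 and 0.15 TPM, and C1s1, a complement protease with a close copy, had 37.8, 0 and 0 TPM. High in library 2 was Adcyap1, the peptide PACAP, at 0.97, 127 and 1.27 TPM. Vcan, the matrix proteoglycan versican, had 5.58, 103 and 28.7 TPM, and Cpxm2 had 3.03, 84.2 and 16.6 TPM. Adcyap1, Adamts1, Runx1 and Vcan are known as genes of the ovulating follicle, while Ptgs2, Has2 and Tnfaip6 of the same process stayed below 3 TPM.

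High in library 3 after Cyp17a1 and Akr1c18 were Serpina5, a serine protease inhibitor, at 34.5, 4.71 and 112 TPM, and Tnc, the matrix protein tenascin C, at 15.75, 126 and 197 TPM. Adnp had 0.51, 32.6 and 33.9 TPM, and Adcy9, an adenylate cyclase, had 1.20, 24.5 and 31.6 TPM. In these 2 genes, as in Aff2 and Pdpr of the same set, library 1 was the one apart, at no more than 1.20 TPM. Shisa6 had 1.06, 8.18 and 29.9 TPM, each library apart from the others. The set high in library 3 thus mixed genes high in 1 library with genes low in library 1.

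Libraries 2 and 3, which were alike in transcript length, differed 2-fold in 364 genes, 189 higher in library 2 and 175 higher in library 3. Among the 10 protein-coding genes that lay furthest above library 2 in library 3 were, beside genes already named, Bpifb4 at 49.2, 3.47 and 51.3 TPM, Grem1, a BMP antagonist of granulosa cells, at 14.3, 5.69 and 64.6 TPM, Phyhip at 6.47, 2.65 and 31.2 TPM and Gsta2, a glutathione transferase, at 15.4, 4.27 and 40.9 TPM. Among the 10 that lay furthest above library 3 in library 2 were, beside Adcyap1, Ovgp1 and Adamts1, Wnt10a, a Wnt ligand, at 1.98, 30.3 and 1.65 TPM, Spon2 at 3.16, 30.7 and 2.31 TPM, Lcn2, lipocalin 2, at 6.95, 53.9 and 5.25 TPM, and Ccl8, a chemokine, at 11.5, 46.2 and 6.35 TPM. Serpina3a, at 31.4, 28.4 and 2.84 TPM, and Tpsb2, a mast cell tryptase, at 18.2, 25.2 and 2.93 TPM, were also among them, and in both library 3 was the one apart. Genes had to have more than 3 counts in both libraries. This choice between 2 libraries was added after the values were seen.

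The genes above 100 TPM with the narrowest range in TPM were of several kinds, and a processed pseudogene, Rpl28-ps1, was among them. Etfa, an electron transfer flavoprotein, had 211, 209 and 215.12 TPM. Akr1b3, aldose reductase, had 253, 250.73 and 259 TPM, and Maf1, a repressor of RNA polymerase III, had 107, 110 and 107 TPM. Cdk4, a kinase of the G1 phase, had 349, 335 and 345 TPM, and Vdac3, a channel of the mitochondrial outer membrane, had 220, 216 and 225 TPM. These ranges depend on the scale. After TMM scaling the range of Etfa was 0.66 (log2) and that of Maf1 0.62, against a median of 0.71 over all 9565 genes. With the length trend removed the range of Maf1 was 0.05 (log2) and that of Trim28, a chromatin corepressor, went from 0.05 to 0.40.

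Among transcripts that encode no protein, Bc1, a short neuronal and germ-line RNA transcribed by RNA polymerase III, was next in its mean to the mitochondrial pseudogenes Gm10925 and Gm28437, at 6749, 3875 and 2640 TPM. Its length is only 168 bases, and these values rest on 1788, 349 and 414 counts. The libraries also enrich polyadenylated RNA, so the rank of Bc1 is uncertain. Malat1 and Neat1, long RNAs of nuclear bodies, had 122, 73.5 and 99.1 TPM and 43.0, 90.5 and 56.7 TPM. H19, an imprinted RNA, had 13.4, 31.2 and 15.5 TPM. Processed pseudogenes held 2.17% of TPM in all, and Gm15772 among them had 3929, 1932 and 46.8 TPM. Such copies of expressed genes share reads with their parents.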

How the data were processed

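RNA-seq gene tables of 3 wild-type ovary libraries were used. The submitters' processing notes list the aligner STAR 2.7.1a, the quantifier RSEM 1.3.1, the quality tools Picard 2.8.1 and FastQC, and the build GRCm38. The sources used here give no strand setting. The deposited expected counts are not normalised, per the file headers and values, and 24.4% to 26.3% of those above 0 are not whole. RSEM shares reads between genes, which affects near copies. The deposited TPM are scaled by the authors for length and total and were the main values. The deposited FPKM were used in 1 alternative, and the authors' effective lengths only for floors. All 55536 identifiers matched GENCODE M21, a release inferred from the identifiers.

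Here, TPM were averaged, ranked and summed over 34 gene lists (18 of cell types, 16 of functions). A gene was called varying where log2(TPM + 1) ranged by at least 2-fold among genes with a mean of at least 10 TPM. TMM counts use the same genes. Expected counts were rounded for TMM factors (edgeR 4.0.16, 0.928 to 1.042) and DESeq2 1.42.0 size factors, and in no test. A smooth length trend was removed per library with statsmodels 0.14.6. The code of the range rule was run on simulated data: of 200 genes made 4-fold higher in 1 of the 3 wild-type libraries (9561 genes), 100% were called in the right library, and 0.288% of the unchanged genes were called. The simulated counts held counting error only, with no length trend or other spread between libraries. The 0.288% is therefore not an error rate of the rule in these libraries. Libraries were checked for duplication by a chi-square over genes, whose smallest value per degree of freedom was 41.2. Totals of 15778631 to 20890536 counts put the floor of 3 counts at up to 1.32 TPM for listed genes at 0, and floors cover counting error only. Sequences are from RefSeq (GRCm38.p6).

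The rule for named genes took the 25 nuclear protein-coding genes of highest mean, 4 members per list and those past 2-fold, 10 genes of largest range per highest library (mean of at least 10 TPM), 10 of smallest range (mean of at least 100 TPM), 12 regulators and the 10 highest non-coding RNAs. Other list members, the protein-coding choice of varying genes, the genes between libraries 2 and 3 and the TATAA search were added after values were seen. The unrestricted rule named small RNAs with under 4 counts in a library, which are not described. Some genes the rule names are not reported here. Members and lists were chosen with earlier results of these data known. Alternatives were other scalings, filters, pseudocounts, thresholds and gene totals, the median, leaving out each library, the length trend and the mitochondrial copies, the last 2 chosen after seeing the data.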

Additional observations from a re-analysis of the deposited data

How the results depend on the processing

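No paired analysis was possible because the report uses 1 group with no contrast. On TMM-scaled CPM, which are not per length, the top 10, 100 and 1000 genes held 5.455%, 17.61% and 47.3%, and 6 of the 25 highest nuclear protein-coding genes were shared with the TPM ranking. On that scale the lists held 0.6296% (granulosa), 0.6996% (stroma), 1.885% (steroid synthesis), 5.839% (ribosomal proteins), 3.42% (mitochondrially encoded) and 1.2% (nuclear respiratory chain), since long transcripts give more reads. With only nuclear genes in the total the top 10 held 6.994%. With the pseudogenes, mitochondrial proteins held 10.76%, an alternative chosen after seeing the data. The 3590 varying genes became 6262 of 15431 at a mean of at least 1 TPM, 1515 of 5028 at 30 TPM and 6833 of 55536 without a filter. They became 364 to 3033 when 1 library was left out, the lowest without library 1, and 1362 with the length trend removed, chosen after seeing the data. FPKM rescaled to the TPM total gave the same shares as TPM. In all, 94 values of summary results stayed within the spread or 1.5 times and 17 did not, and for single genes and other lists 1187 did and 350 did not. Of 235 named genes the highest library changed for 26 with TMM scaling, 25 with DESeq2 size factors and 45 with the length trend removed. Depth limits listed genes at 0 to floors of up to 1.32 TPM. Near copies limit globins, ribosomal, glutathione transferase and mitochondrial genes.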

Other observations

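Antibody transcripts, which no list held, came to a share of TPM of 0.0891%, 0.0498% and 0.0241% for constant segments and 0.0436%, 0.0534% and 0.0244% for variable segments, lowest in library 3 for both. Of abundant genes in no list, Clu, the secreted chaperone clusterin, had 946, 939 and 2218 TPM and was highest in library 3. Ybx1, an RNA-binding protein, had 459, 1746 and 1040 TPM and Mgarp, a mitochondrial protein of steroid-making tissue, had 809, 1429 and 853 TPM, both highest in library 2. Psap and Ctsl, proteins of lysosomes, were even at 1231, 1599 and 1677 TPM and 1486, 1324 and 1365 TPM.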
